A study of Mus musculus with 18 samples.

Results

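The 34 genes described here encode the enzymes that build cholesterol, the proteins that sense and regulate sterols, and the proteins that move and export lipids. They were chosen by name and all 34 were found among the 21923 genes of the deposited table. Neurons and glia of the adult brain depend on cholesterol made locally, because lipoproteins of the blood do not cross the blood-brain barrier. Astrocytes are a main source of this cholesterol and release it on particles that carry apolipoprotein E. When sterols are scarce, SCAP escorts the SREBP transcription factors out of the endoplasmic reticulum, where INSIG proteins otherwise hold them, and the SREBPs then switch on the synthesis enzymes. When sterols are abundant, liver X receptors bind oxidised sterols and switch on the exporters ABCA1 and ABCG1.

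Astrocytic mRNA was obtained from mouse cortex by translating ribosome affinity purification (TRAP), in which tagged ribosomes are pulled down together with the mRNA they carry. The cKO mice are labelled GLUT1 flox/flox;GLAC +/wt, and the controls are labelled WT with the type GLAC +/wt. All are male, of C57BL/6 strain, and were sampled in the home cage. According to the study's methods both genotypes carried the tamoxifen-inducible CreERT2 under the GLAST (Slc1a3) promoter and received as adults a Cre-dependent virus expressing EGFP-L10a under the human GFAP promoter followed by tamoxifen, and only the cKO mice were homozygous for the floxed Slc2a1 allele, which encodes the glucose transporter GLUT1. The tag is therefore limited to cells in which the virus and Cre were both active, and controls with floxed alleles but no Cre are not among these mice. The comparisons use 7 libraries, namely the 4 cKO immunoprecipitated (IP) libraries numbered 1, 5, 9 and 17 in the table and the 3 control IP libraries numbered 11, 15 and 19.

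The total estimated count lay between 12570324 and 40734322 per library. All 34 genes passed the filter on low counts, and the lowest single count was 67, for Nr1h3 in cKO library 17. Levels are given in CPM, the count scaled to a common library size, after TMM scaling. They are not adjusted for transcript length, so they compare libraries for 1 gene and not genes with each other. The 10 astrocyte markers were detected in every library, among them Gja1, the main astrocytic connexin, at 1042 to 1233 CPM. Markers of neurons were present too, at a summed 2257 to 3376 CPM, and those of oligodendrocytes, which also make cholesterol, at 472 to 899 CPM, so each value is that of the IP fraction and not of pure astrocytes. The count of the whole Slc2a1 gene, the target of the deletion, was 61.7, 59.3 and 57.6 CPM in control libraries 11, 15 and 19 and 61.9, 56.4, 59.4 and 58.3 CPM in cKO libraries 1, 5, 9 and 17, that is 59.5 ± 2.02 CPM (SD, n = 3) in control and 59.0 ± 2.30 CPM (SD, n = 4) in cKO libraries. It did not separate the groups. The study measured the loss of Slc2a1 in IP samples over a stretch of its exons and by PCR, and reported a large reduction by both. The deposited table holds a value for the whole gene and does not resolve exons, so this count is no check of the deletion. Why the whole-gene count showed no such reduction was not tested, and the genotypes are those the study gives.

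None of the 34 genes differed between cKO and control IP libraries after adjustment over all genes. The quasi-likelihood test of edgeR with Benjamini-Hochberg adjustment called 0 of 34, against 0.0451% of the 13296 genes tested, and the lowest adjusted p among the 34 was 0.9996. With edgeR's exact test and with DESeq2 the count was 0 as well. At an unadjusted p under 0.05, 3 genes were lower in cKO libraries (Insig1, Cyp51 and Mvd), where 1.14% of all genes were, and 0 were higher, where 1.44% were. The largest fold changes in either direction were modest. They ran from -0.51 for Insig1 to 0.28 for Srebf2 on the log2 scale, with standard errors between 0.11 and 0.34. For 32 of the 34 genes the 95% interval of the fold change lay within a 2-fold change in either direction, and for 18 of them within 1.5-fold. The 2 others were Nr1h3 and Abcg1, both of low count, whose intervals ran below a 2-fold lower level. Among all 13296 genes tested, many of lower count, the interval lay within 2-fold for 64.8% and within 1.5-fold for 4803 genes.

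**Figure D1:**
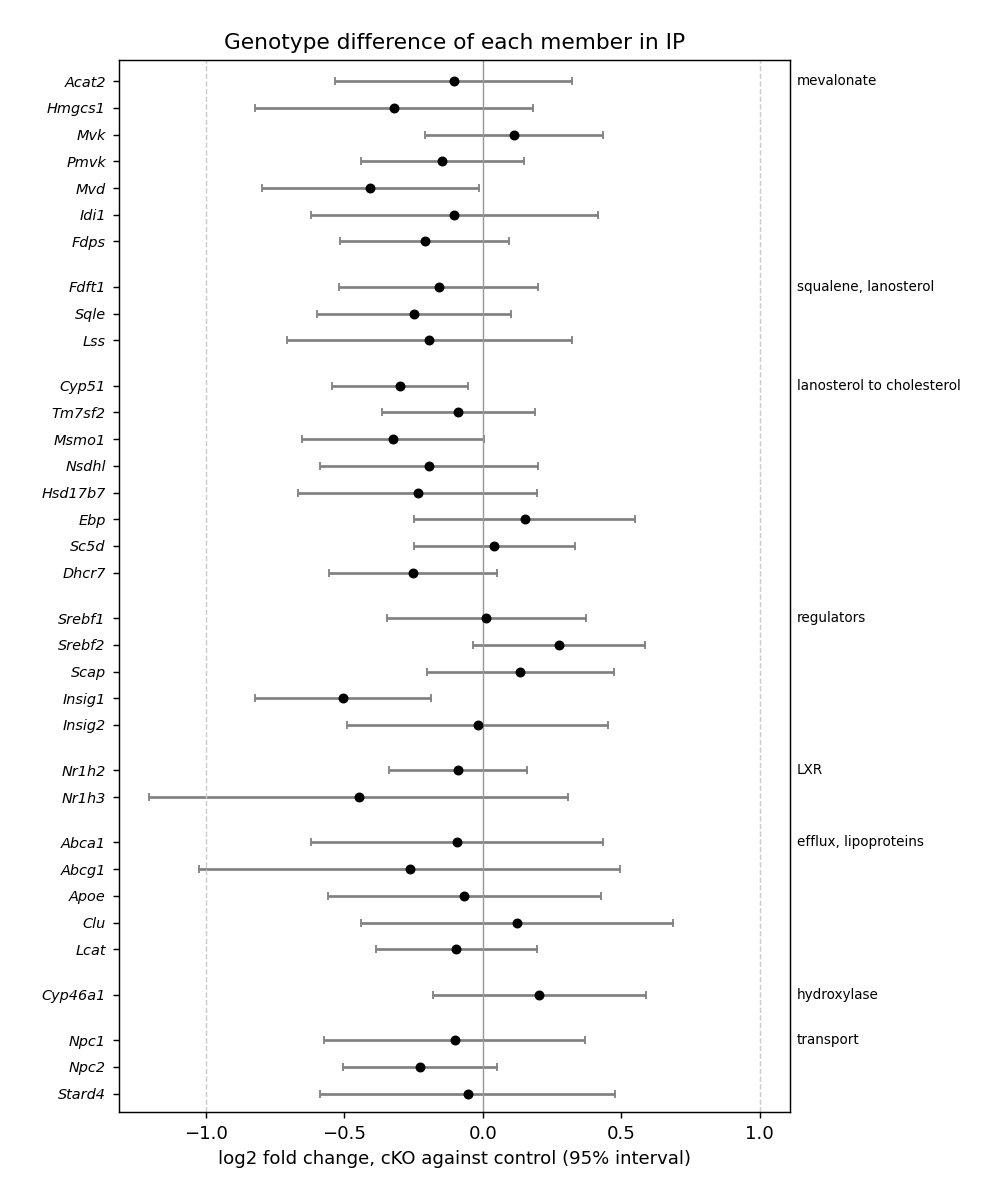
Log2 fold change of each of the 34 genes, cKO against control IP libraries (horizontal axis), with its 95% interval from edgeR's quasi-likelihood fit; genes are ordered by role and the dashed lines mark a 2-fold change. The intervals of 32 genes stay within the dashed lines and those of Insig1, Cyp51 and Mvd lie below 0.

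Fitted values below 0 were found for 26 of the 34 genes (76.5%), while 47.7% of all tested genes had one. The median log2 fold change was -0.10 over the 34 genes and 0.012 over all genes tested. Among the 18 synthesis enzymes 15 had a value below 0, with a median of -0.20, and among the 16 other genes 11 did, with a median of -0.079. Without library 1 the median over the 34 genes was -0.21, and without library 19 it was -0.21 as well. It was -0.18 without library 9, -0.10 without library 15, -0.091 without library 5, -0.089 without library 11 and -0.077 without library 17. The IP libraries also differed in their content of other cell types. The summed oligodendrocyte markers reached 899 CPM and went down to 472 CPM in cKO libraries, against 773 to 868 CPM in control libraries, and all 8 markers had a fitted value below 0 (median log2 fold change -0.39, 0 of 8 called). Microglial markers summed to 50.7 to 104 CPM in cKO and 62.2 to 80.5 CPM in control libraries, with 6 of 7 above 0 (median 0.17), and endothelial markers to 14.3 to 31.8 CPM and 11.5 to 21.3 CPM, with 4 of 5 tested above 0 (median 0.41). The 2 precursor markers stayed at a summed 6.15 CPM or less, and the median was -0.058 for the astrocyte and -0.0027 for the neuronal markers. None of these genes was called. The part of this in the values above was not tested. Because these are IP libraries, the sums do not measure the number of cells of a type in the cortex or their RNA. How RNA of other cell types came into the IP fraction was not tested.

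Insig1 stood at the top of the list by p. It encodes an endoplasmic reticulum protein that retains the SCAP-SREBP complex and is itself a target of SREBP, and it spans bases 28071412 to 28078662 of chromosome 5 (GRCm38). Its level was 199, 174 and 183 CPM in control libraries 11, 15 and 19, and 115, 156, 111 and 140 CPM in cKO libraries 1, 5, 9 and 17. Every cKO library lay below every control library. The log2 fold change was -0.51 (standard error 0.14, 95% interval -0.82 to -0.19), that is a fitted level 0.565 to 0.877 times that of control, with an unadjusted p of 0.00496 and an adjusted p of 0.9996 in edgeR. The 7 fits that each omit 1 library kept an unadjusted p under 0.05 for Insig1, and their lowest adjusted p (edgeR) was 0.756. Its paralogue Insig2, which serves the same retention step, was at 65.4, 57.1 and 56.2 CPM in control and 62.2, 50.2, 82.1 and 40.7 CPM in cKO libraries. Those groups overlapped throughout, with a log2 fold change of -0.018 (standard error 0.21).

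Cyp51, the lanosterol demethylase, spans bases 4080674 to 4104697 of chromosome 5. It was at 185, 178 and 183 CPM in control libraries 11, 15 and 19, and at 157, 145, 134 and 154 CPM in cKO libraries 1, 5, 9 and 17. Its control libraries were close together and all cKO libraries lay below them, with a log2 fold change of -0.30 (standard error 0.11, unadjusted p = 0.0210 and adjusted p = 0.9996, edgeR). Mvd, the decarboxylase that completes isopentenyl diphosphate, spans bases 122433596 to 122443422 of chromosome 8. It was at 154, 162 and 124 CPM in control and at 145, 87.1, 111 and 99.2 CPM in cKO libraries. Here library 1 reached into the control range, and the log2 fold change was -0.41 (standard error 0.18, unadjusted p = 0.0429 and adjusted p = 0.9996, edgeR). Of the 7 fits that omit 1 library, 4 kept an unadjusted p (edgeR) under 0.05 for Cyp51 and 2 did for Mvd.

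Promoter sequence is shown for these 3 genes and for Hmgcs1, an enzyme of the mevalonate branch. The reason is that the synthesis genes are known to share sites for SREBP, NF-Y and Sp1. Each run holds the 250 bases before the RefSeq start site (GRCm38.p6), 5′ to 3′ on the strand of the gene. Capitals mark matches, on either strand, to the NF-Y box CCAAT, the Sp1 box GGGCGG, the sterol regulatory element TCACNCCAC and the E-box CACGTG. No base of the 4 runs belongs to more than 1 match. The positions are chr13:119690101-119690350 for Hmgcs1 on the plus strand, chr5:28071162-28071411 for Insig1 on the plus strand, chr8:122443423-122443672 for Mvd on the minus strand and chr5:4104698-4104947 for Cyp51 on the minus strand.
Hmgcs1: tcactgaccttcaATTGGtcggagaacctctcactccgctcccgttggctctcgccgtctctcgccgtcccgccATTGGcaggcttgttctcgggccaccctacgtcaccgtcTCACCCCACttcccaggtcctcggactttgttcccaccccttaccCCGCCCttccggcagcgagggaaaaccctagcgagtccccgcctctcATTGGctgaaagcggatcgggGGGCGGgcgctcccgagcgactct
Insig1: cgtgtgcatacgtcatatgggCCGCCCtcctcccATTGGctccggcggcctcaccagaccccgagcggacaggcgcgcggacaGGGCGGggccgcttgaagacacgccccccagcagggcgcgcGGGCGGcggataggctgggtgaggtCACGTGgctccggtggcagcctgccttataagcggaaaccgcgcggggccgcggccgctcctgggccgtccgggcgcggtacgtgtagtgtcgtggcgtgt
Mvd: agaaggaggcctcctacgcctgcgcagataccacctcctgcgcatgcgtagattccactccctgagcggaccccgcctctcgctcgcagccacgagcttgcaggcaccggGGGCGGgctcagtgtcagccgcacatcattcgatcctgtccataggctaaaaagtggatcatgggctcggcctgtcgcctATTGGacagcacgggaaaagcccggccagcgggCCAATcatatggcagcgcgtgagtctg
Cyp51: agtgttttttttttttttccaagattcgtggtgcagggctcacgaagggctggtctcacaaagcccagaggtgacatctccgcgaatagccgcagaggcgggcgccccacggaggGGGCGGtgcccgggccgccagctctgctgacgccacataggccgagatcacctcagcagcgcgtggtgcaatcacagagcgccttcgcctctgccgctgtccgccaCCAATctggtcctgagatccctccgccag
Hmgcs1 held 3 NF-Y boxes, 2 Sp1 boxes and 1 sterol regulatory element. Insig1 held 1 NF-Y box, 3 Sp1 boxes and 1 E-box, Mvd 2 NF-Y boxes and 1 Sp1 box, and Cyp51 1 of each of these boxes.

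RefSeq windows were at hand for 27 of the 34 genes and for 15 of the 18 enzymes. A CCAAT box occurred in 14 of the 15 enzyme windows (93.3%) and in 21 of the 27 in all (77.8%), against 40.6% of the 9915 tested genes with a window and 37.5% of all genes with one. The exception among the enzymes was Acat2. The Sp1 box occurred in 14 of 15 enzyme windows, the exception being Pmvk, and in 81.5% of the 27, against 64.7% of tested genes. The E-box was found in 6 of the 27 (22.2%), namely Hsd17b7, Sc5d, Dhcr7, Scap, Insig1 and Abca1, against 9.84% of tested genes. The strict sterol regulatory element was found in Hmgcs1 alone of the 27 (3.70%), against 1.22% of tested genes. Genes with several start sites were counted once if any window matched, and a match describes letters, not binding.

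The 7 genes of the mevalonate branch carry acetyl groups to farnesyl diphosphate. Acat2, the cytosolic thiolase, was at 121 to 164 CPM in control and 101 to 173 CPM in cKO libraries. Hmgcs1 was at 618, 793 and 430 CPM in control and 662, 393, 487 and 422 CPM in cKO libraries. Its control libraries spanned nearly the whole range, and the log2 fold change of -0.32 (standard error 0.23) depended on single libraries. It was -0.094 without library 15, -0.50 without library 1 and -0.52 without library 19, with an adjusted p from edgeR of at least 0.996 in each of the 7 such fits. Mvk and Pmvk, the kinases that phosphorylate mevalonate in turn, had log2 fold changes of 0.11 (standard error 0.15) and -0.15 (standard error 0.13). Idi1, the isomerase of isopentenyl diphosphate, was at 599, 491 and 346 CPM in control and 617, 348, 466 and 352 CPM in cKO libraries. Its lowest library was a control and its highest a cKO library, with a log2 fold change of -0.10 (standard error 0.23). Fdps, which joins the isoprene units to farnesyl diphosphate, was at 240 to 291 CPM in control and 211 to 282 CPM in cKO libraries. The median log2 fold change of this branch was -0.15, and 6 of its 7 genes had a value below 0.

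Squalene and lanosterol are made by Fdft1, Sqle and Lss. Fdft1, squalene synthase, was at 266 to 356 CPM in control and 248 to 358 CPM in cKO libraries. Sqle, the epoxidase of squalene, was at 107, 123 and 94.95 CPM in control and 104, 71.1, 102 and 88.0 CPM in cKO libraries. Lss, the cyclase, was at 32.9 to 48.3 CPM in control and 25.1 to 46.8 CPM in cKO libraries. The groups overlapped for all 3, and the log2 fold changes were -0.16, -0.25 and -0.19 in this order, with standard errors of 0.16, 0.16 and 0.23.

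Of the 8 enzymes that turn lanosterol into cholesterol, 6 had a value below 0 and the median was -0.22. Msmo1, an oxidase that removes methyl groups after Cyp51, was at 377, 385 and 318 CPM in control and 354, 282, 271 and 243 CPM in cKO libraries. Only library 1 of the cKO group reached the control range, and the log2 fold change was -0.32 (standard error 0.15, unadjusted p = 0.0526 from edgeR). Dhcr7, the reductase of the last step, was at 74.5, 73.2 and 69.9 CPM in control and 65.5, 52.9, 69.8 and 55.1 CPM in cKO libraries. All cKO libraries lay below the controls, library 9 by less than 0.1 CPM, and the log2 fold change was -0.25 (standard error 0.14, unadjusted p = 0.0932 from edgeR). Nsdhl and Hsd17b7, which act in demethylation with Msmo1, had log2 fold changes of -0.20 (standard error 0.18) and -0.24 (standard error 0.20). Tm7sf2, a sterol reductase, had one of -0.089 (standard error 0.13). Ebp, the isomerase, and Sc5d, the desaturase that precedes Dhcr7, were the 2 genes with values above 0, at 0.15 (standard error 0.18) and 0.041 (standard error 0.13). In Ebp the control libraries were at 17.3 to 20.6 CPM and the cKO libraries at 17.9 to 23.6 CPM.

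**Figure D2:**
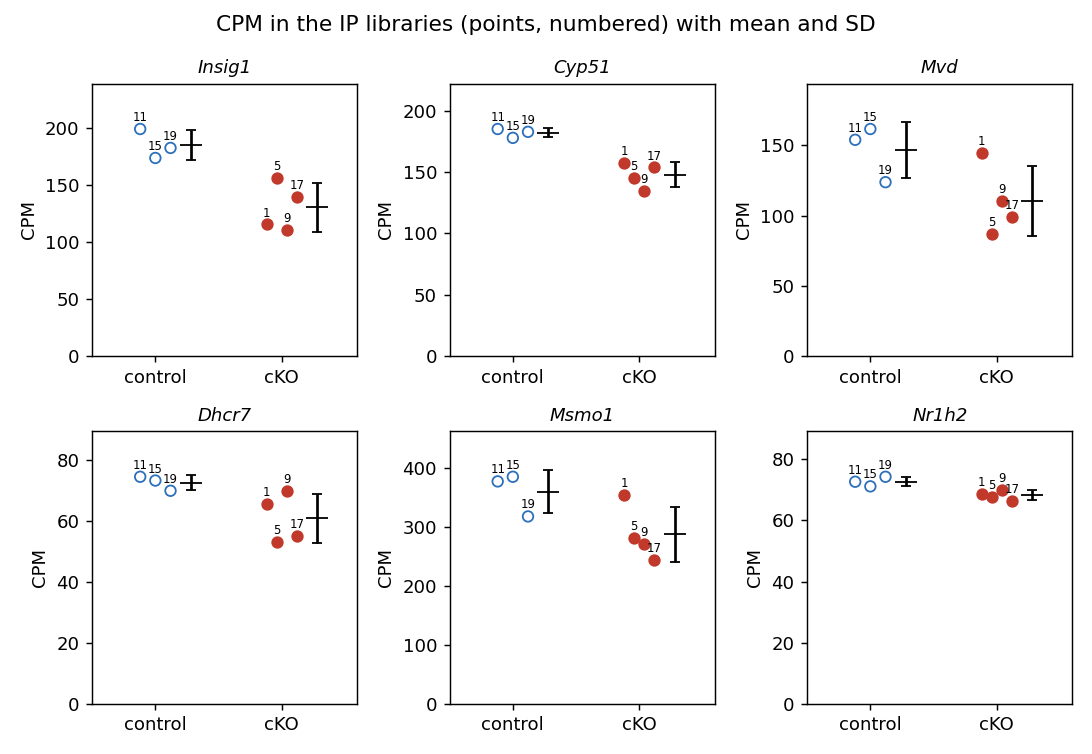
CPM of 6 genes in each IP library (numbered points; open, control; filled, cKO) with the mean and SD of each genotype beside them, on axes that start at 0. Insig1, Cyp51, Dhcr7 and Nr1h2 show no overlap between the genotypes, while cKO library 1 reaches the control range for Mvd and Msmo1.

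The SREBP machinery gave no common direction, with 3 of the 5 regulators above and 2 below 0 (median 0.013). Srebf2, the SREBP gene most tied to cholesterol synthesis, was at 45.00, 56.2 and 48.5 CPM in control and 56.9, 55.0, 61.7 and 68.1 CPM in cKO libraries. Its cKO values were mostly the higher ones but library 5 was below control library 15, and the log2 fold change of 0.28 (standard error 0.14, unadjusted p = 0.0772 and adjusted p = 0.9996, edgeR) did not pass. Srebf1, more tied to fatty acid synthesis, was at 85.4, 112 and 84.0 CPM in control and 76.4, 91.3, 113 and 98.4 CPM in cKO libraries, and its log2 fold change of 0.013 (standard error 0.16) turned sign with upper-quartile scaling. Scap, the escort of the SREBPs, was at 47.2 to 53.0 CPM in control and 42.3 to 59.7 CPM in cKO libraries.

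The groups did not overlap for 4 genes (Insig1, Cyp51, Dhcr7 and Nr1h2), each lower in cKO libraries, where this held for 2.76% of all tested genes, and for 0 genes in the other direction, where it held for 2.35%. Nr1h2, the widely expressed liver X receptor, was the steadiest of the 34 genes, at 71.2 to 74.3 CPM in control and 66.3 to 70.2 CPM in cKO libraries. Although its groups were apart, they differed by only -0.091 on the log2 scale (standard error 0.11, unadjusted p = 0.436 from edgeR). Nr1h3, the other liver X receptor, was at 18.02, 13.1 and 17.1 CPM in control and 15.9, 12.5, 13.6 and 4.97 CPM in cKO libraries. Library 17, the library of lowest total count, was the low one, and the log2 fold change of -0.45 (standard error 0.34) became -0.20 without it.

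Apoe, the main lipid carrier of astrocytes, alone took 2.73% to 3.80% of all counts of a library. It spans bases 19696244 to 19701310 of chromosome 7 and was at 34429, 38020 and 26312 CPM in control and 43584, 25510, 29333 and 27306 CPM in cKO libraries. The cKO group held both the highest and the lowest library, and the log2 fold change was -0.067 (standard error 0.22). Clu, a second abundant apolipoprotein, was at 9595, 9304 and 7201 CPM in control and 14531, 7058, 9215 and 7124 CPM in cKO libraries. Library 1 stood above the rest, and the log2 fold change of 0.12 (standard error 0.26) became -0.16 without it. Abca1, which loads cholesterol onto apolipoproteins, was at 30.9, 50.3 and 34.4 CPM in control and 24.7, 32.9, 39.9 and 46.9 CPM in cKO libraries. Abcg1, which passes sterol to formed particles, was at 11.1, 15.9 and 25.5 CPM in control and 8.08, 17.9, 13.2 and 18.97 CPM in cKO libraries. For both exporters the spread within a genotype was wider than the difference between genotypes. Lcat, which esterifies cholesterol on secreted particles, was at 229 to 278 CPM in control and 208 to 259 CPM in cKO libraries.

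Cyp46a1, the hydroxylase by which the brain clears cholesterol and which is known mainly from neurons, was at 78.3, 75.9 and 83.2 CPM in control and 77.9, 116, 70.2 and 100 CPM in cKO libraries. Its 2 highest libraries, 5 and 17, were also those with the highest summed neuronal markers (3376 and 3344 CPM), and the part of neuronal RNA in this was not tested. Npc1 and Npc2 move cholesterol out of lysosomes. Npc1 was at 54.7 to 71.0 CPM in control and 43.8 to 81.1 CPM in cKO libraries, and Npc2 at 285 to 326 CPM in control and 222 to 287 CPM in cKO libraries. The log2 fold change of Npc2 was -0.23 (standard error 0.13, unadjusted p = 0.0987 from edgeR). Stard4, a carrier of sterol between membranes, was at 18.5 to 24.6 CPM in control and 13.5 to 25.3 CPM in cKO libraries.

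**Figure D3:**
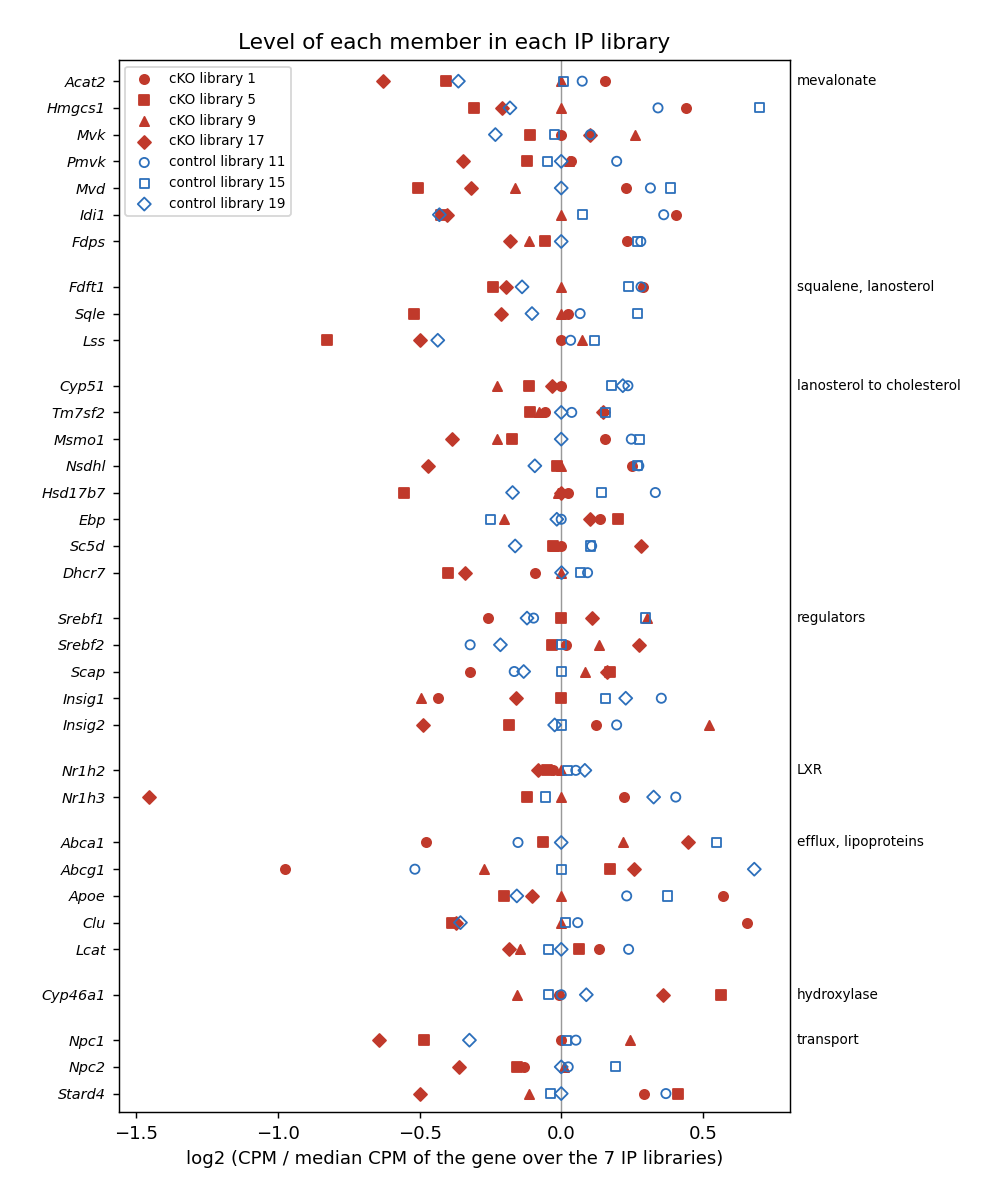
Level of each of the 34 genes in each IP library as log2 of its CPM over the median of the gene in the 7 libraries (horizontal axis), with filled symbols for cKO and open symbols for control libraries. Most enzymes have libraries 5, 17 and 19 on the left and libraries 1, 11 and 15 on the right, across both genotypes, and Nr1h3 in library 17 is the farthest point.

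Most of the spread in the synthesis enzymes lay between libraries of the same genotype. Of the 18 enzymes, 17 were above their own median in control library 11 and 15 in control library 15, but 2 in control library 19. In the cKO group the counts were 12 in library 1, 1 in library 5, 3 in library 9 and 4 in library 17. The summed level of the 18 enzymes was 3621, 3663 and 2773 CPM in control libraries 11, 15 and 19 and 3564, 2556, 2949 and 2621 CPM in cKO libraries 1, 5, 9 and 17. Library 1 was thus close to the higher controls, and library 19 lay among the cKO libraries. The summed astrocyte markers, most of them Aldoc, followed a similar order, with 44027, 45201 and 29647 CPM in the control libraries and 57227, 30525, 38107 and 29331 CPM in the cKO libraries. The summed neuronal markers, most of them Snap25, were highest where the enzymes were low. They were at 3294 CPM in library 19, 3376 CPM in library 5 and 3344 CPM in library 17, against 2257 to 2805 CPM in the other 4 libraries. Snap25, Syt1, Rbfox3, Gad2 and Stmn2 were each higher in libraries 5, 17 and 19 than in the other 4. Gad1 went the other way, and Tubb3 and Slc17a7 did not separate these libraries. The part of cell type content in the spread of the enzymes was not tested.

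Without libraries 5, 17 and 19 the count of called genes among the 34 was again 0, with 2 libraries left in each genotype. These libraries were chosen after seeing the data. For Insig1 they include the cKO libraries of higher level (156 CPM in library 5 and 140 CPM in library 17). Libraries 1 and 9, at 115 and 111 CPM, stay in. Libraries 5, 17 and 19 also have the lowest summed levels of the 18 enzymes (2556, 2621 and 2773 CPM). The values of this fit, for Insig1, for the enzymes and for the 34 genes, are therefore not independent of that choice. Insig1 then had a log2 fold change of -0.73 (adjusted p = 0.0646, edgeR), Cyp51 one of -0.32 and Mvd one of -0.31, and the median over the 34 genes was -0.096.

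**Figure D4:**
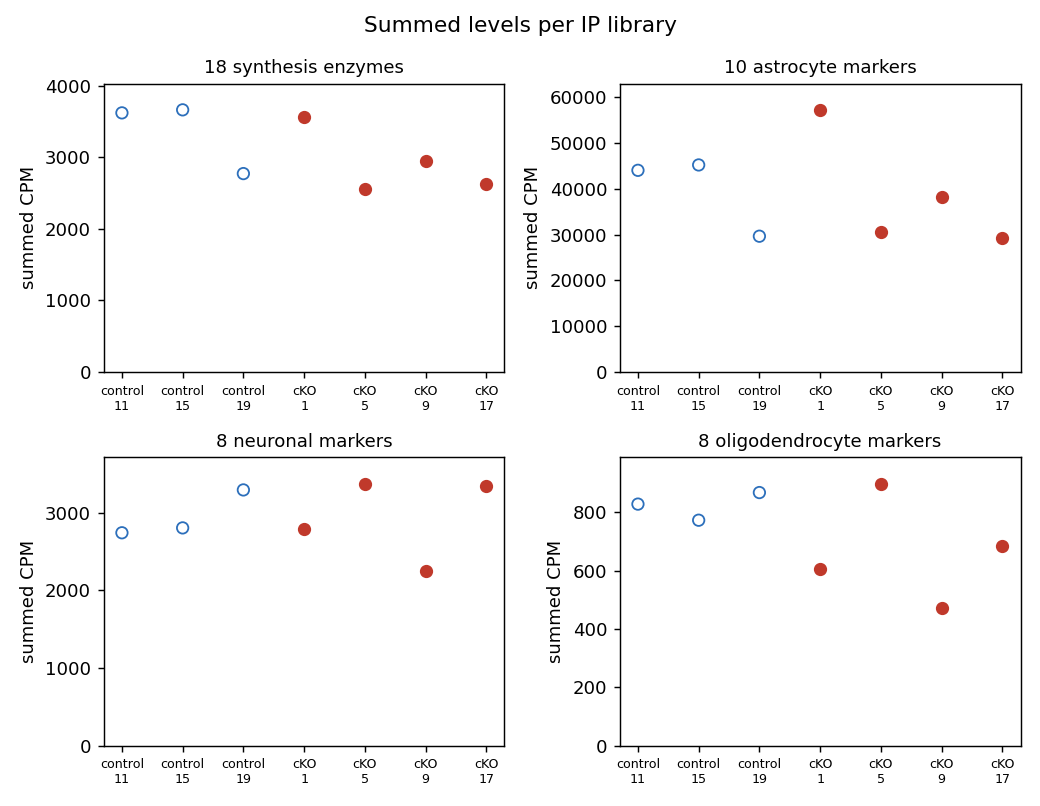
Summed CPM per IP library (open, control; filled, cKO) of the 18 synthesis enzymes, 10 astrocyte markers, 8 neuronal markers and 8 oligodendrocyte markers, on axes that start at 0. Libraries 5, 17 and 19 have the lowest sums of enzymes and of astrocyte markers and the highest sums of neuronal markers, most of which is Snap25.

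The ratio of the highest to the lowest of the 7 libraries had a median of 1.66 over the 34 genes, from 1.12 for Nr1h2 to 3.63 for Nr1h3, where the median over all tested genes was 1.91. The standard deviation of log2 CPM within a genotype had a median of 0.235 over the 34 genes and 0.330 over all tested genes, many of which have lower counts. By role the median was 0.274 for the mevalonate branch, 0.158 for the enzymes after lanosterol and 0.386 for the exporters and lipoproteins. Of 35 further genes of lipid synthesis, uptake and sterol regulation, 34 were tested, 0 were called, 15 had a value above 0 and 19 below, and the median log2 fold change was -0.018.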

How the data were processed

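The authors trimmed single-end Smart-seq2 reads with cutadapt 1.15 and assigned them to GENCODE vM17 transcripts (GRCm38) with kallisto 0.44.0, per the labels' processing notes and the study's methods. They deposited estimated counts per gene symbol, with no normalization for depth or length. Kallisto shares reads among transcripts with the same sequence, so genes with near-identical copies are less certain. Of the 18 columns, 7 carry numbers that the study lists as control or cKO IP samples and were used. By the study's methods, samples with few reads or high neuronal expression had been left out. The labels list more control IP samples than the 3 used here. The 4 cKO IP libraries used are as many as the cKO IP samples they list. The part of this uneven choice of samples in the values was not tested. The other 11 columns were not used here, because their names tie them to no sample, so no ratio of IP to input is given. The columns carry no replicate number, and p-values measure the spread between these libraries. The lowest chi-square per degree of freedom between 2 libraries of a genotype was 30.9, far above that of copies.

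Counts were rounded, filtered with filterByExpr and scaled by TMM in edgeR 4.0.16 (R 4.3.3), which left 13296 of 21923 genes. Genotypes were compared over all genes with the quasi-likelihood test and Benjamini-Hochberg adjustment at 0.05. Standard errors came from the F statistic, and 95% intervals from its moderated degrees of freedom. The fit was tested on simulated counts with known changes. Log2 CPM used a prior count of 2. With 3 against 4 libraries an exact permutation test of 1 value cannot give a two-sided p below 0.0571, so none was run. Library depth puts 3 counts at 0.0762 to 0.222 CPM, which covers counting error only.

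The 34 genes, their steps and the other lists were chosen with earlier results of these data known, and all 34 genes are named. Acly, Scd1, Fasn and Pltp were named after their values were seen. Promoter windows and positions come from the RefSeq annotation of GRCm38.p6, the build of the files. As alternatives, the scaling was replaced by RLE, by upper quartiles or by library size alone, and further fits used no filter, a minimum of 1 CPM in 3 libraries, edgeR's exact test, or DESeq2 1.42.0, or left out each library in turn and, chosen after seeing the data, libraries 5, 17 and 19 together.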

Additional observations from a re-analysis of the deposited data

Results flagged for a closer look

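Among the 4 cKO libraries, 2 of the 34 genes had 1 library set apart from the others by Dixon's criterion at 95%, where chance alone would give 1.7. Hsd17b7 was at 20.1 CPM in library 5 and at 29.3 to 30.0 CPM in the other 3. Sc5d was at 286 CPM in library 17 and at 231 to 235 CPM in the other 3. Groups of 3 control libraries are too small for this criterion.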

How the results depend on the processing

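The number of the 34 genes called was 0 in each of the 15 alternatives, while the number called among all genes went from 6 to 18 with edgeR's exact test, 21 with DESeq2 and 29 without libraries 5, 17 and 19. With each library left out, the median log2 fold change lay between -0.21 and -0.077. Of 510 fold changes of single genes under the alternatives, 481 kept their sign and 29, in 13 genes, did not. With upper-quartile scaling Srebf1 was at -0.0021. Without libraries 5, 17 and 19 the reversed values were 0.035 for Acat2, -0.12 for Sc5d, -0.065 for Srebf1, -0.026 for Scap, 0.23 for Insig2, 0.0052 for Apoe, -0.062 for Cyp46a1 and 0.090 for Npc1, and the cause was not tested. With each library left out, the fold changes ranged from -0.24 to 0.14 for Abca1, -0.51 to 0.10 for Abcg1, -0.24 to 0.016 for Acat2, -0.27 to 0.049 for Apoe, -0.16 to 0.24 for Clu, -0.30 to 0.090 for Idi1, -0.23 to 0.12 for Insig2, -0.28 to 0.024 for Npc1, -0.045 to 0.085 for Sc5d, -0.088 to 0.16 for Srebf1 and -0.19 to 0.090 for Stard4. Insig1 stayed between -0.60 and -0.44. The mean level of the 34 genes under RLE and library-size scaling moved by less than the spread between libraries. Their median spread within a genotype moved by less than its own size. That limit is too wide to decide whether the spread depends on the scaling. No paired analysis was possible because the columns carry none of the labels' replicate numbers.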

Other observations

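Genes of fatty acid synthesis, which SREBPs also regulate, gave the following levels in the same libraries. Acly, which supplies the cytosol with acetyl-CoA for sterols and fatty acids, was at 125, 134 and 111 CPM in control libraries 11, 15 and 19 and at 115, 84.7, 92.7 and 82.6 CPM in cKO libraries 1, 5, 9 and 17. Only library 1 reached the control range, and the log2 fold change was -0.39 (standard error 0.14, unadjusted p = 0.0207 and adjusted p = 0.9996, edgeR). Of the further 34 genes tested, 1 (Acly) had an unadjusted p under 0.05, a share near that over all genes tested (1.14% lower and 1.44% higher in cKO libraries). Scd1, a desaturase of fatty acids, was at 338 to 448 CPM in control and 284 to 353 CPM in cKO libraries (log2 fold change -0.30, standard error 0.14). Fasn, fatty acid synthase, was at 70.6 to 119 CPM in control and 75.7 to 112 CPM in cKO libraries, with a log2 fold change of 0.015 (standard error 0.19). Pltp, a phospholipid transfer protein, lay lower in cKO libraries without overlap, as 1 of the 34 and as 2.76% of all genes tested did, at 5.84 to 8.03 CPM in control and 2.83 to 5.69 CPM in cKO libraries, with a log2 fold change of -0.54 (standard error 0.36, unadjusted p = 0.163 from edgeR).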
